A study of Mus musculus with 2 samples.

Results

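The genes described here are 37 stress response genes of 27998 genes in a single-cell count table from regenerating mouse mammary glands. They were taken by name, in 2 groups: 25 immediate early genes and 12 heat shock or chaperone genes (the Hsp and Dnaj genes and Bag3). All 37 had a row in the table and at least 1 unique molecular identifier (UMI, a tag that marks 1 captured RNA molecule). No measured value was used to choose them, but the list was drawn up with earlier results of the same cells known.

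Immediate early genes are transcribed within minutes of a stimulus without new protein being made. Growth factors, wounding, stretch and inflammatory signals reach them through MAP kinases and cAMP, which switch on factors that already sit at their promoters. Their products form the AP-1 transcription factors (Fos and Jun proteins) and also the feedback proteins that end the pulse, such as the Dusp phosphatases and the mRNA decay factor Zfp36. Heat shock genes encode chaperones, which fold new proteins and refold damaged ones, and the factor HSF1 drives the inducible members when unfolded proteins build up. Both groups are also known to respond while a tissue is dissociated and sorted.

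Mammary epithelium was rebuilt by mixing donor basal cells with wild-type luminal cells and placing them in the cleared fat pads of female nude (nu/nu) mice that were 3 weeks old. The donors carried the R26R mT/mG reporter, and the basal cells had been given an adenovirus with Cre and GFP, so both groups share the reporter, the virus and the nude host. The basal cells were Fgfr2+/+ in the Ctrl group (labelled WT) and Fgfr2∆/∆, with Fgfr2 deleted by Cre, in the Fgfr2 KO group, and grafts were taken 5 days after surgery for droplet sequencing on the 10x Genomics platform. With 1 library per group there was no test of the groups, and library, animal and handling cannot be told apart from genotype. How many animals were pooled and how long each suspension was handled were not given in the sources used here, and a nude host lacks T cells but keeps macrophages and other immune cells. Every interval below is a 95% interval that covers counting error only.

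The Ctrl library held 268 cells with 5458515 UMIs (median 16301 per cell) and the Fgfr2 KO library 86 cells with 1253032 UMIs (median 10485). Any cell in which Ptprc (the leukocyte antigen CD45) had a UMI was called immune (73 in Ctrl and 23 in Fgfr2 KO). Of the rest, cells with at least 5 keratin UMIs were called basal-keratin where Krt14 and Krt5 together exceeded Krt8 and Krt18 (67 and 17 cells) and luminal-keratin where they fell short (103 and 21 cells), and 25 cells in each library were left as low-keratin. No barcode occurred in both libraries. Basal and luminal markers followed the keratin classes, with the 8 basal markers at 6484 and 9512 counts per 1000000 UMIs (CPM) in basal-keratin cells of Ctrl and Fgfr2 KO and the 8 luminal markers at 7755 and 6127 CPM in luminal-keratin cells. The samples were labelled as epithelial cells, but the immune class carried the 6 macrophage and monocyte markers at 12312 and 6234 CPM, and the low-keratin class carried them at 9196 and 5489.9 CPM. Traces of other cell types in the keratin classes were larger in Ctrl: the macrophage list stood at 311 against 98.9 CPM in basal-keratin and 455 against 136 CPM in luminal-keratin cells. The 4 fibroblast markers stood at 707 against 28.3 CPM in basal-keratin and 1118 against 144 CPM in luminal-keratin cells. Of the 6 macrophage genes, 3 were at 0 in basal-keratin and 1 in luminal-keratin cells of Fgfr2 KO, against 1 and 0 in Ctrl, and the part of these traces in the results below was not tested.

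Fgfr2 itself was low: basal-keratin cells held 42 UMIs (32.6 CPM) in Ctrl and 7 UMIs (24.7 CPM) in Fgfr2 KO, with overlapping intervals. Droplet reads come from the ends of transcripts and can be made from a deleted allele too, so this does not check the label. GFP, the mark of Cre in the design, was present in luminal-keratin cells at 165 CPM in Ctrl against 1216 CPM in Fgfr2 KO, above the 106 and 477 CPM of basal-keratin cells, so a keratin class does not tell which donor compartment a cell came from. In the immune class of Fgfr2 KO, 1 cell held 83994 UMIs, 30.9% of the class, with 1 Ptprc UMI and 607 Krt8 and Krt18 UMIs, and results for that class are given with and without it.

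Promoters of the inducible HSP70 pair, Hspb1, Fos and Fosb are shown here for the control elements they carry. Of the 37 genes, 30 had a RefSeq promoter window (250 bases before to 50 after the start site, GRCm38.p6). Egr1, Fosl1, Ier2, Myc, Hspa8, Hsp90aa1 and Hsp90ab1 had none and are not in the counts below. Elements outside the window were not searched. A minimal heat shock element, the paired HSF1 unit GAANNTTC or TTCNNGAA, occurred in the windows of 8 of 9 heat shock genes and 3 of 21 immediate early genes, against 15.1% of all 32851 windows. TGACG, the shortened core of the cAMP response element searched on both strands, occurred in 12 of 21 immediate early and 5 of 9 heat shock genes, against 20.8% of all windows, and the full element TGACGTCA, which holds that core, in 2 of 21 (Btg2 and Dusp1) and 0 of 9, against 1.79%. The serum response factor's CArG box occurred in 2 of 21 immediate early genes (Egr2 and Zfp36) and 0 of 9 heat shock genes, against 1.63% of windows. The TATA motif TATAAA was in 4 of 21 and 0 of 9, against 13.6%, and CCAAT in 11 of 21 and 6 of 9, against 37.4%. A match describes letters in a window and does not show that a factor bound there. The 120 bases before the start site follow, 5′ to 3′ on the gene's strand, with heat shock elements in capitals for 3 chaperone genes and TGACG in capitals for both Fos genes.
Hspa1a (chr17:34972157-34972276, minus strand): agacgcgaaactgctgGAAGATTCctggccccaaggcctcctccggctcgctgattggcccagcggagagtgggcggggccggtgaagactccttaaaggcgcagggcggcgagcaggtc
Hspa1b (chr17:34959239-34959358, minus strand): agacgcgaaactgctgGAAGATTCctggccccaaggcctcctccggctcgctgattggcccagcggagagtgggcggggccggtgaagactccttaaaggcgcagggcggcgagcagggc
Hspb1 (chr5:135887799-135887918, plus strand): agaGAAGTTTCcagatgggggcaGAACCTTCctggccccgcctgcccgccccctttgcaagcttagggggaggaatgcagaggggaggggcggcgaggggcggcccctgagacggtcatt
Fos (chr12:85473770-85473889, plus strand): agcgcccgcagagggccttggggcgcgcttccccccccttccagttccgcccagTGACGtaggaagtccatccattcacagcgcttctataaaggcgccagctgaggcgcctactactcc
Fosb (chr7:19310046-19310165, minus strand): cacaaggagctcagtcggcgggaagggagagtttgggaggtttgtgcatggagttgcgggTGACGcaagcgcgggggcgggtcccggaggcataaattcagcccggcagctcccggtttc

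The Hspa1a and Hspa1b stretches were the same at 119 of 120 bases, each with 1 element at the same distance from the start site, and Hspb1 carried 2 elements. The chaperonin genes Hspd1 and Hspe1 start close together on opposite strands of chromosome 1 (minus and plus). Inducible HSP70 is encoded by this gene pair on chromosome 17, at 34969190-34972156 (Hspa1a) and 34956436-34959238 (Hspa1b) on the minus strand of GRCm38 in GENCODE M21. Their transcripts are 85.4% identical over the aligned length, but the last 400 bases, where droplet reads fall, shared none of 310 windows of 91 bases. Reads from stretches that both copies share cannot be placed on 1 of them, and how such reads were counted was not checked.

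The members spanned a wide range of levels. Over all 354 cells the highest immediate early genes were the AP-1 subunits Jund (1865 CPM), Fos (1262 CPM) and Junb (1228 CPM). The highest chaperones were the constitutive Hsp90ab1 (1839.5 CPM), the constitutive HSP70 gene Hspa8 (1540.2 CPM) and the small heat shock protein gene Hspb1 (679.9 CPM). The lowest were Fosl1 (17.3 CPM), Egr2 (19.8 CPM) and Dusp2 (20.6 CPM). Each molecule is counted once whatever its length, so CPM here compare numbers of captured molecules, not of bases. Summed, the 25 immediate early genes made up 1.17% of all UMIs in basal-keratin and 1.23% in luminal-keratin cells of Ctrl, and the 12 heat shock genes 0.675% and 0.639%.

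**Figure D1:**
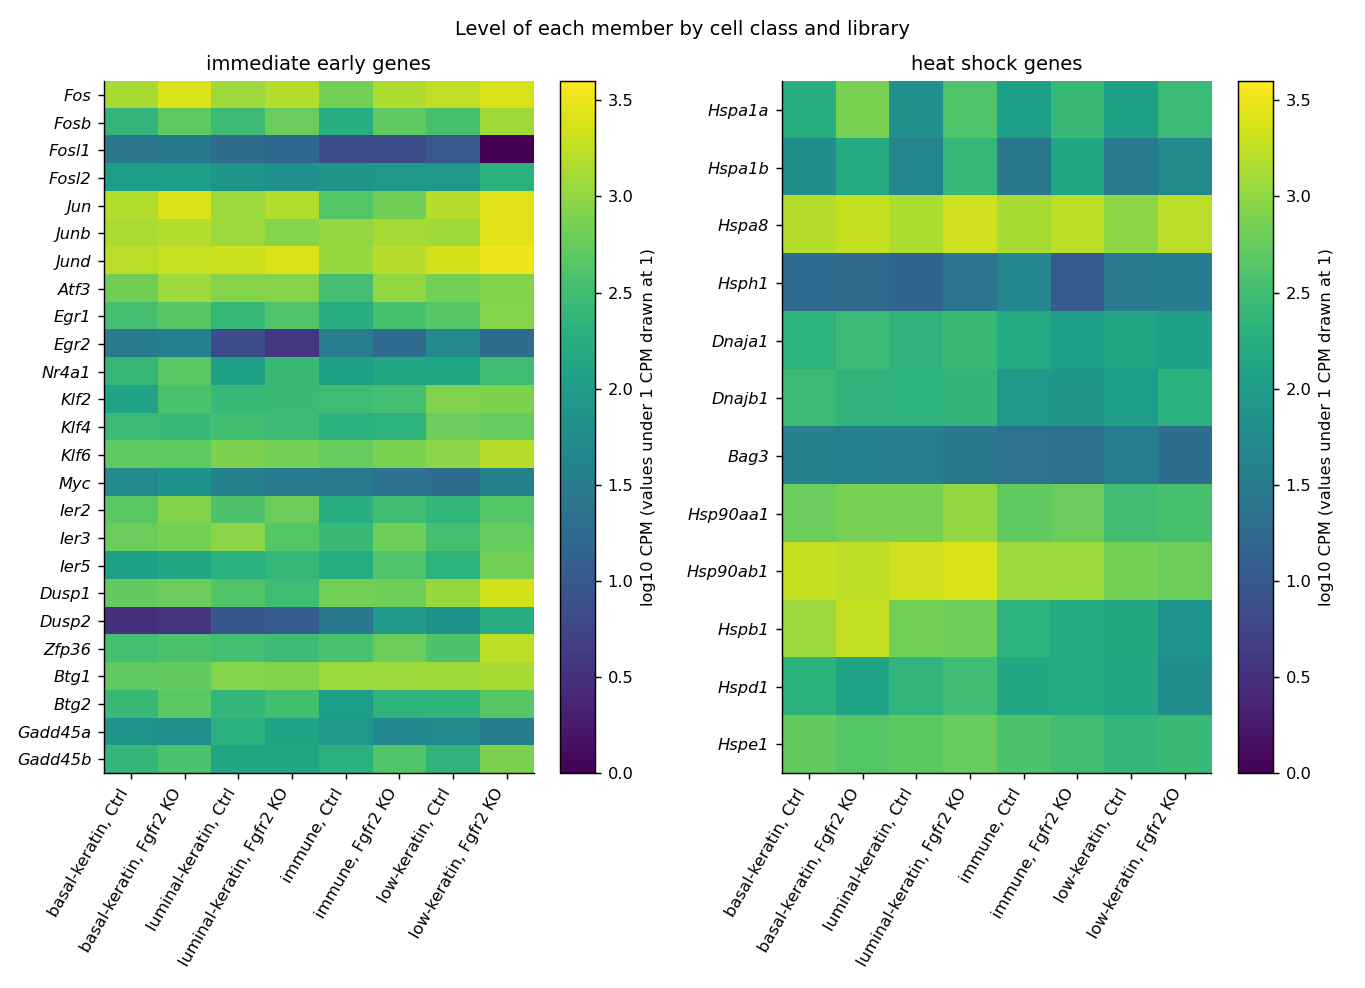
Colour gives the level of each of the 37 members (rows) as log10 CPM in the 4 cell classes of each library (columns), immediate early genes on the left and heat shock genes on the right. Jund, Fos, Jun and Junb and, among chaperones, Hsp90ab1 and Hspa8 are bright in every column, while Hspa1a and Hspa1b are brighter in each Fgfr2 KO column than in the Ctrl column beside it, for example 407 against 65.4 CPM of Hspa1a in luminal-keratin cells.

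Within the Ctrl library the keratin classes carried like sums of both groups, while individual members differed. Compared as basal-keratin over luminal-keratin, 3 of 37 members were at least 2-fold higher (Egr2, Nr4a1 and Hspa1a), against 5.24% of 9739 genes with at least 20 UMIs, and 3 were at least 2-fold lower (Klf2, Dusp2 and Gadd45a), against 9.09%. Nr4a1, an orphan nuclear receptor, stood at 249.9 CPM in basal-keratin and 113 CPM in luminal-keratin cells, a log2 ratio of 1.15 (0.92 to 1.38). Klf2, a Krüppel-like factor best known from endothelium and T cells, went the other way with 118 against 260.0 CPM (-1.14 (-1.40 to -0.89)), as did the growth arrest gene Gadd45a with 73.7 against 198 CPM (-1.43 (-1.76 to -1.11)). Hspb1, a small heat shock protein that binds actin-rich cytoskeleton, stood at 1137 CPM in basal-keratin and 689 CPM in luminal-keratin cells. Immune cells carried less of both groups than epithelial cells. The immediate early sum was 8527 CPM in immune cells of Ctrl, 1.42-fold below that of both keratin classes together, and the heat shock sum was 4256 CPM, 1.53-fold below. Of 37 members, 8 were at least 2-fold lower in immune than in keratin-classed cells of Ctrl (Fosl1, Jun, Atf3, Ier2, Ier3, Btg2, Dnajb1 and Hspb1), against 21.8% of 10491 genes, and 3 were at least 2-fold higher (Egr2, Dusp2 and Hsph1), against 9.27%. Jun showed this with 436 CPM in immune and 1255 CPM in keratin-classed cells, and Dusp2, a MAP kinase phosphatase of blood cells, showed the reverse with 28.9 and 7.48 CPM. Set against the shares of all genes, these counts were close to the background.

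Between libraries, the immediate early sum was higher in Fgfr2 KO in every class, by amounts that differed. Counted by gene, 22 of 24 immediate early genes tested lay above no change as point values in basal-keratin cells, 13 of 25 in luminal-keratin and 20 of 24 in immune cells, against 42.9%, 47.1% and 47.7% of all genes, so the luminal-keratin count was near the background. In basal-keratin cells it was 11746 CPM in Ctrl against 16674 CPM in Fgfr2 KO (log2 ratio 0.51 with an interval of 0.46 to 0.55). In luminal-keratin cells it was 12308 and 13273 CPM (0.11 (0.07 to 0.15)), and in immune cells 8527 and 13058 CPM (0.61 (0.56 to 0.67)). Over single cells, the median was 10796 CPM in Ctrl against 13255 CPM in Fgfr2 KO for basal-keratin cells, 12068 and 15102 CPM for luminal-keratin cells, and 8379 and 12511 CPM for immune cells. The cells overlapped widely: 14 of 17 basal-keratin, 16 of 21 luminal-keratin and 17 of 23 immune cells of Fgfr2 KO lay above the Ctrl median of their class. The luminal-keratin ratio was the least settled, since it ran from 0.06 to 0.57 over the alternatives tried.

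The heat shock sum was also higher in Fgfr2 KO. Over pooled UMIs it differed by less than the immediate early sum in basal-keratin and immune cells and by more in luminal-keratin cells. Counted by gene, 6 of 12 heat shock genes lay above no change in basal-keratin, 10 of 12 in luminal-keratin and 5 of 12 in immune cells, so in basal-keratin and immune cells the counts were near those shares of all genes. It was 6752 and 8264 CPM in basal-keratin cells of Ctrl and Fgfr2 KO (0.29 (0.23 to 0.36)), 6393 and 8462 CPM in luminal-keratin cells (0.40 (0.36 to 0.45)) and 4256 and 4753 CPM in immune cells (0.16 (0.07 to 0.25)). Of the Fgfr2 KO cells, 13 of 17, 15 of 21 and 16 of 23 lay above the Ctrl median in these classes. Over single cells, the median was 5835 and 7114 CPM in basal-keratin, 5744 and 6796 CPM in luminal-keratin and 3008 and 3567 CPM in immune cells. The log2 ratios of these medians were 0.29, 0.24 and 0.25, against 0.30, 0.32 and 0.58 for the immediate early sum. By medians the order in luminal-keratin cells thus turned. In that class, 1 Fgfr2 KO cell held 21.8% of the heat shock UMIs. Without the single 83994-UMI cell, the immune heat shock sum of Fgfr2 KO was 3954 CPM and its log2 ratio turned to -0.11, while the immediate early ratio stayed at 0.62. Median mitochondrial shares were 3.09% in Ctrl and 2.73% in Fgfr2 KO for basal-keratin, 2.93% and 3.91% for luminal-keratin, and 2.55% and 2.96% for immune cells. Median depth was 15905 and 16985 UMIs, 22599 and 24288 UMIs, and 12228 and 6729 UMIs, in the same order, so depth was close between libraries in the keratin classes and not in the immune class.

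**Figure D2:**
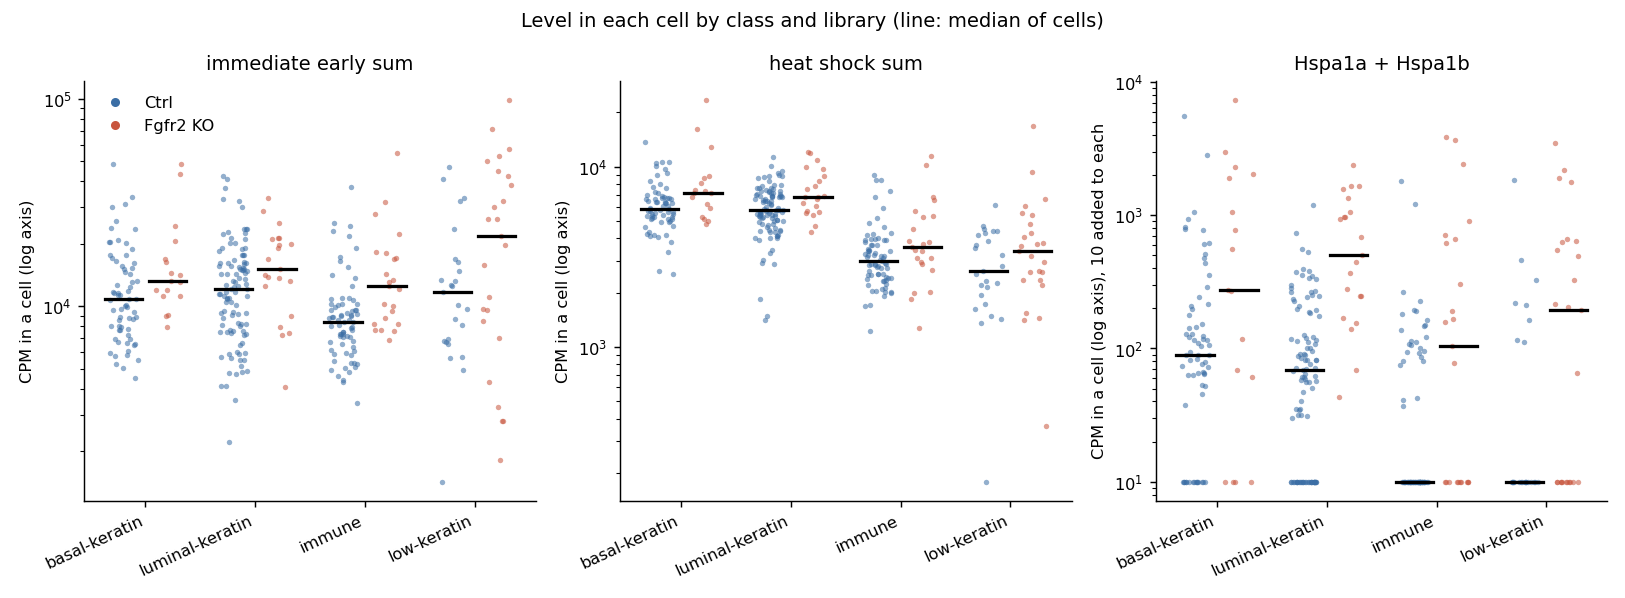
Each point is 1 cell and each line the median of a group, for the immediate early sum, the heat shock sum and the sum of Hspa1a and Hspa1b (vertical log axes in CPM, with 10 added in the third panel so that cells at 0 can be drawn), by cell class and library. Groups overlap in every panel, and the third shows the widest gap, with medians of 58.7 CPM in Ctrl against 494 CPM in Fgfr2 KO for luminal-keratin cells.

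Taken member by member, few genes crossed 2-fold in the keratin classes, and the inducible HSP70 pair did so in each of them. In basal-keratin cells, 4 of the 36 members with at least 20 UMIs were at least 2-fold higher in Fgfr2 KO (Fosb, Klf2, Hspa1a and Hspa1b), against 4.0% of 6744 genes, and 0 were at least 2-fold lower, against 11.5%. In luminal-keratin cells, 4 of 37 were at least 2-fold higher (Fosb, Nr4a1, Hspa1a and Hspa1b), against 4.02% of 9249 genes, and 1 was at least 2-fold lower (Ier3), against 9.94%. In immune cells, 11 of 36 were at least 2-fold higher, against 7.80% of 6345 genes, and 1 was at least 2-fold lower (Hsph1), against 12.2%. Among genes with at least 100 UMIs, 4 of 31, 4 of 33 and 9 of 30 members were at least 2-fold higher in basal-keratin, luminal-keratin and immune cells, against 1.55%, 0.985% and 4.01% of all such genes. The median log2 ratio of the members was 0.27, 0.19 and 0.36 in the same order, and that of all genes -0.10, -0.05 and -0.03. With 1 library a group, a 2-fold difference says how far apart these libraries were, and the share of all genes that crossed it is the yardstick. Btg2, Egr1, Fos, Fosb, Hspa1a, Hspa8, Ier2, Jun and Jund had an interval above no change in all 4 classes, though that of Jund in basal-keratin cells spanned no change with 8 further immune genes used to call immune cells. The share of all genes with such intervals was not counted, so this list has no yardstick. With counting error alone, the intervals are narrow for abundant genes, and those of the immune class include the 83994-UMI cell.

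**Figure D3:**
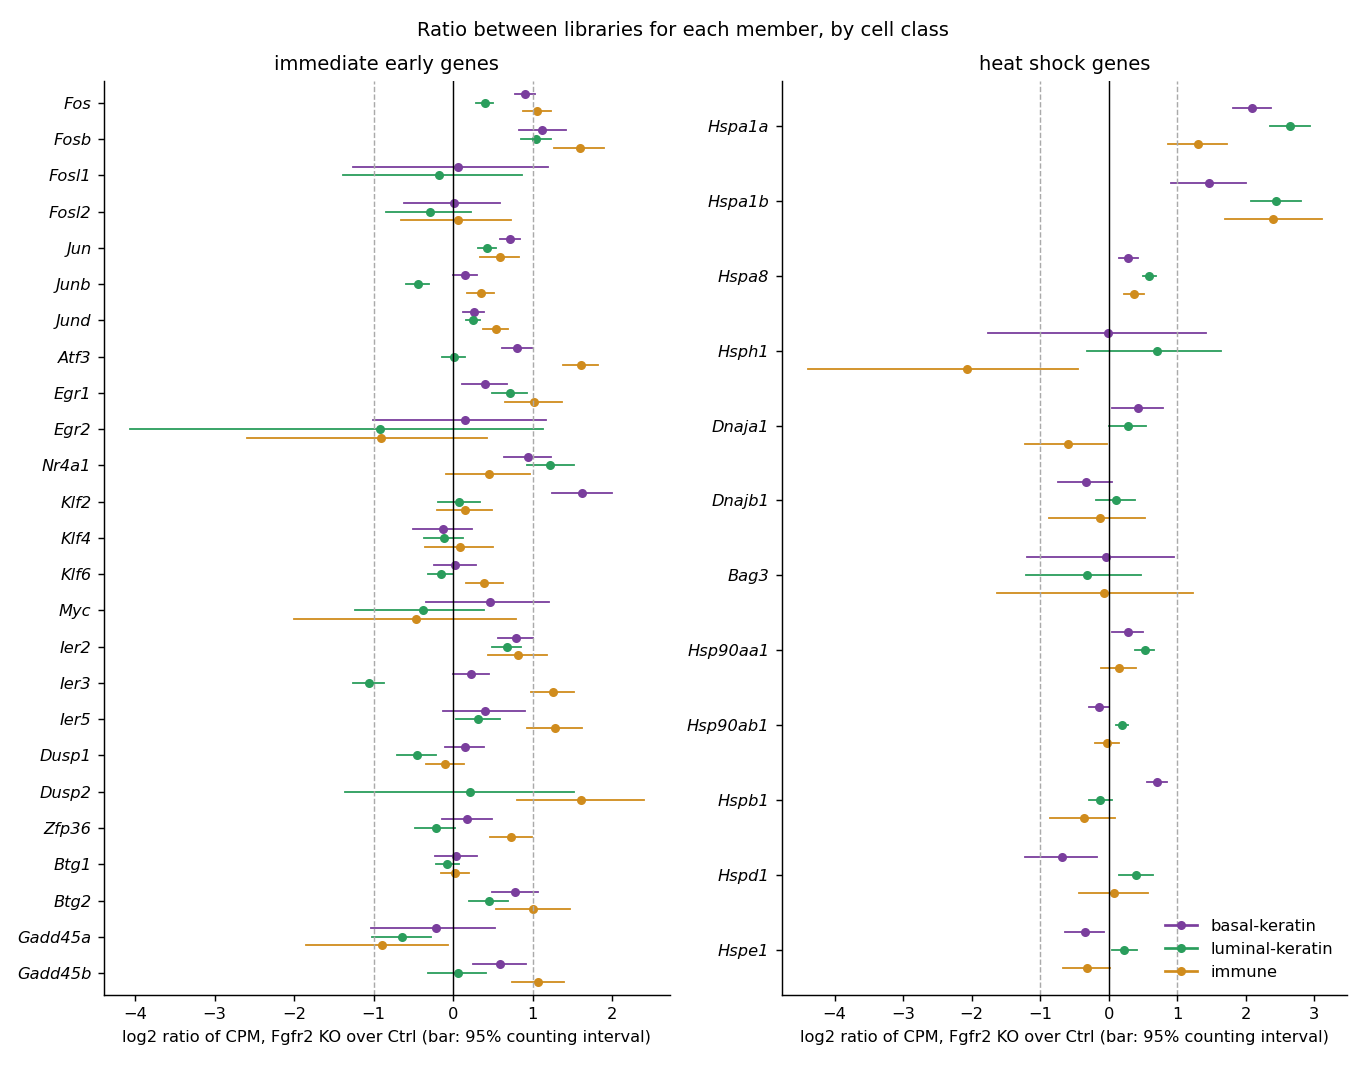
Points give the log2 ratio of CPM, Fgfr2 KO over Ctrl, for members with at least 20 UMIs in basal-keratin, luminal-keratin and immune cells, bars the 95% counting intervals, and dashed lines 2-fold. Hspa1a (2.09, 2.64 and 1.30) and Hspa1b lie to the right of 2-fold in each class, and Ier3 lies on opposite sides in luminal-keratin (-1.06) and immune cells (1.25).

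The AP-1 genes encode the subunits that pair into dimers on TGA-type sites: Fos and Fosb are the fast, strongly induced Fos proteins, Fosl1 and Fosl2 the slower ones, and Jun, Junb and Jund their partners. Fos, whose promoter stretch is shown above, stood at 1357 CPM in Ctrl against 2548 CPM in Fgfr2 KO in basal-keratin cells (0.91 on the log2 scale, 0.78 to 1.03). In luminal-keratin cells Fos was at 1168 and 1539 CPM (0.40 (0.29 to 0.51)). The order of the classes rests on the cells counted: when cells with at least 5 UMIs over 8 further immune genes were moved to the immune class, the ratio was 0.32 in basal-keratin and 1.19 in luminal-keratin cells. Fosb was at 231 and 502 CPM in basal-keratin (1.12 (0.82 to 1.42)) and at 291 and 597 CPM in luminal-keratin cells (1.04 (0.85 to 1.23)). With each cell thinned to 5000 UMIs, the Fosb ratio was 0.57 in basal-keratin cells, below 2-fold. Jun stood at 1519 CPM in Ctrl against 2494 CPM in Fgfr2 KO in basal-keratin cells (0.72 (0.59 to 0.84)) and at 1129 and 1520.2 CPM in luminal-keratin cells (0.43 (0.32 to 0.54)). Jund, the constitutive Jun protein, moved least of these, by 0.26 (0.12 to 0.39) and 0.25 (0.16 to 0.34), and its basal-keratin ratio was 0.0042 with the same cells moved. Junb did not follow the others: it was at 1393 and 1548 CPM in basal-keratin cells but lower in luminal-keratin cells of Fgfr2 KO, with 872 against 1187 CPM (-0.45 (-0.59 to -0.31)). Without the cells moved by the 8 further immune genes, the luminal-keratin ratio of Junb turned to 0.40. Fosl1 and Fosl2 held 35 and 136 UMIs in basal-keratin cells of Ctrl, and their intervals spanned no change in both keratin classes.

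Of the 8 other transcription factors, Egr1 and Nr4a1 were higher in Fgfr2 KO in both keratin classes and Atf3 and Klf2 in basal-keratin cells, while the intervals of Klf4, Klf6, Egr2 and Myc spanned no change in both. Egr1, a zinc finger factor induced through ERK, was at 351 CPM in Ctrl against 463 CPM in Fgfr2 KO in basal-keratin cells (0.40 (0.11 to 0.68)) and at 257 and 420.1 CPM in luminal-keratin cells (0.71 (0.49 to 0.93)). Nr4a1 was at 249.9 and 481 CPM (0.94 (0.64 to 1.24)) and at 113 and 264 CPM (1.22 (0.93 to 1.52)), near 2-fold in both. Atf3, a factor of the integrated stress response, differed in basal-keratin cells, with 669.9 against 1173 CPM (0.81 (0.62 to 0.99)), and stood at like levels in luminal-keratin cells, with 861 against 866 CPM (0.01 (-0.14 to 0.15)). The luminal-keratin ratio of Atf3 depended on which cells were counted, and with the 8 further immune genes it was 1.18. Klf2 had the largest immediate early ratio of the basal-keratin class, with 152 UMIs (118 CPM) in Ctrl and 103 UMIs (364 CPM) in Fgfr2 KO (1.63 (1.25 to 2.0)). Leaving out the cell with the most Klf2 in each library brought that ratio to 0.83, so single cells weigh on it. In luminal-keratin cells Klf2 stood at 260.0 and 275 CPM (0.08 (-0.19 to 0.34)), with a ratio that ran from -0.30 to 0.71 over the alternatives. Myc, a growth gene and FGF target in many cells, held 66 and 20 UMIs in basal-keratin cells and 104 and 16 UMIs in luminal-keratin cells, too few to place (0.46 (-0.34 to 1.20) and -0.37 (-1.23 to 0.39)).

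The last immediate early group holds response proteins and feedback regulators. In basal-keratin cells, 8 of 9 tested lay above no change as point values, with a median log2 ratio of 0.22, against 42.9% of all genes tested. In luminal-keratin cells 5 of 10 did, with a median of -0.01, against 47.1% of all genes, so that count was near the background. Ier2 and Btg2, an immediate early nuclear protein and an antiproliferative cofactor, were higher in Fgfr2 KO in both: Ier2 was at 472 and 816 CPM in basal-keratin (0.79 (0.57 to 1.01)) and 392 and 625 CPM in luminal-keratin cells (0.67 (0.49 to 0.85)). Btg2 was at 276 and 473 CPM (0.78 (0.48 to 1.07)) and at 238 and 324 CPM (0.45 (0.20 to 0.69)). Ier3, Dusp1 and Gadd45a were lower in luminal-keratin cells of Fgfr2 KO. Ier3, a survival protein that is a target of both NF-kB and MAP kinase signals, was at 934 CPM in Ctrl against 448 CPM in Fgfr2 KO (-1.06 (-1.26 to -0.87)), 2.09-fold lower, against 605 and 707 CPM in basal-keratin cells (0.22 (-0.01 to 0.45)). That luminal-keratin ratio was -0.71 when cells with 1 Ptprc UMI were kept among the keratin classes. Dusp1, the phosphatase that switches off p38 and JNK, was at 418 and 304 CPM (-0.46 (-0.70 to -0.22)), and Gadd45a at 198 and 127 CPM (-0.64 (-1.02 to -0.28)). The Dusp1 ratio turned to 0.45 with no keratin minimum, a setting that brought 14 further Ctrl cells and 10 further Fgfr2 KO cells into the class. Gadd45b, a stress sensor of the same family as Gadd45a, was higher in basal-keratin cells of Fgfr2 KO (242 and 364 CPM, 0.59 (0.25 to 0.91)) and at 139.9 and 146 CPM in luminal-keratin cells, where its log2 ratio ran from -0.47 to 0.67 over the alternatives. Zfp36 was at 334 and 378 CPM and at 337 and 289 CPM, and Btg1, the Btg2 relative that marks resting cells, at 525 and 541 CPM and at 857 and 816 CPM, all 4 intervals spanning no change. The luminal-keratin ratio of Zfp36 ran from -0.26 to 0.61 over the alternatives.

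The inducible HSP70 genes gave the largest ratios of all members in luminal-keratin and, for Hspa1a, in basal-keratin cells. Hspa1a held 231 UMIs (179 CPM) in 67 basal-keratin cells of Ctrl and 216 UMIs (763 CPM) in 17 of Fgfr2 KO, a 4.26-fold difference that equals a log2 ratio of 2.09 (1.82 to 2.36). In luminal-keratin cells it held 178 UMIs (65.4 CPM) and 221 UMIs (407 CPM), 6.23-fold apart (2.64 (2.35 to 2.93)). Hspa1b followed with 60.5 and 166 CPM in basal-keratin (1.46 (0.90 to 2.0)) and 45.5 and 247 CPM in luminal-keratin cells (2.44 (2.08 to 2.80)). Both genes share 1 promoter stretch but for 1 base and differ over their last 400 bases. Where their reads fell was not looked at, so how separate the counts are was not tested. The pattern over cells differed between classes: in luminal-keratin cells the summed pair ran from 0 to 1184 CPM with a median of 58.7 in Ctrl and from 33.2 to 2389 CPM with a median of 494 in Fgfr2 KO. In basal-keratin cells it ran from 0 to 5558 CPM (median 79.8) and from 0 to 7325 CPM (median 266), with 4 of 17 Fgfr2 KO cells at 0. The lower quartile of luminal-keratin cells of Fgfr2 KO (237 CPM) lay above the upper quartile of Ctrl (169.7 CPM), whereas basal-keratin cells overlapped, with a lower quartile of 51.4 CPM in Fgfr2 KO and an upper quartile of 195 CPM in Ctrl. With each cell thinned to 5000 UMIs, Hspa1a had at least 1 UMI in 19 of 102 luminal-keratin cells of Ctrl (18.6%, 11.6 to 27.6%) and in 16 of 21 of Fgfr2 KO (76.2%, 52.8 to 91.8%), where before thinning it was seen in 51 of 103 and 20 of 21. No cell type here is known to lack this gene, so no background share from free RNA can be set beside these. Over the alternatives the Hspa1a log2 ratio stayed between 1.43 and 2.17 in basal-keratin and between 2.45 and 4.15 in luminal-keratin cells.

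The rest of the HSP70 system differed less than the inducible pair. Hspa8, which has a like sequence but is made at all times, was at 1560.2 and 1901 CPM in basal-keratin (0.28 (0.15 to 0.42)) and 1456 and 2189 CPM in luminal-keratin cells (0.59 (0.49 to 0.68)). Dnaja1 and Dnajb1 encode HSP40 co-chaperones that load substrates onto HSP70, and Dnajb1 is a classical HSF1 target. Dnaja1 was at 213 and 286 CPM in basal-keratin (0.43 (0.05 to 0.79)) and 220.4 and 267 CPM in luminal-keratin cells (0.28 (0.01 to 0.54)). Dnajb1 was at 281 and 223 CPM (-0.34 (-0.75 to 0.05)) and at 213 and 228 CPM (0.10 (-0.19 to 0.38)), with intervals that spanned no change. Hsph1, an HSP110 that recycles nucleotide on HSP70, and Bag3, a co-chaperone of selective autophagy, held only 5 and 10 UMIs in basal-keratin and 13 and 15 UMIs in luminal-keratin cells of Fgfr2 KO, and their differences were not detectable at this depth.

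Hspb1 had unlike ratios between the keratin classes, whereas the opposite directions of the mitochondrial chaperonins held only in some settings. Hspb1 was at 1137 CPM in Ctrl against 1851 CPM in Fgfr2 KO in basal-keratin cells (0.70 (0.56 to 0.85)), and at 689 and 632 CPM in luminal-keratin cells (-0.12 (-0.29 to 0.04)). It was thus higher in basal-keratin than in luminal-keratin cells of both libraries, and further apart in Fgfr2 KO. Hspd1 (HSP60) and Hspe1 (HSP10) make the barrel and lid of the chaperonin that folds imported mitochondrial proteins. Hspd1 was at 204 and 127 CPM in basal-keratin (-0.68 (-1.23 to -0.18)), on 36 UMIs in Fgfr2 KO, and at 237 and 313 CPM in luminal-keratin cells (0.40 (0.15 to 0.65)). Hspe1 was at 543 and 428 CPM (-0.34 (-0.63 to -0.06)) and at 488 and 571 CPM (0.23 (0.04 to 0.41)), in the same directions as Hspd1. The luminal-keratin side did not last: with cells thinned to 5000 UMIs the ratios were -0.69 for Hspd1 and -0.55 for Hspe1, and without the cell richest in Hspd1 that gene's ratio was -0.13. The basal-keratin ratio of Hspe1 turned to 0.038 with the 8 further immune genes. The cytosolic HSP90 genes, whose products hold kinases and receptors in an active shape, did not move alike: Hsp90aa1, the inducible form, was at 599 and 728 CPM in basal-keratin (0.28 (0.05 to 0.50)) and 719.5 and 1036 CPM in luminal-keratin cells (0.53 (0.39 to 0.66)). Hsp90ab1 was at 1921 and 1738 CPM and at 2209 and 2519 CPM, with log2 ratios of -0.14 (-0.29 to -0.0040) and 0.19 (0.10 to 0.27), and the basal-keratin ratio turned to 0.18 with the 8 further immune genes.

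In immune cells the values of some members, though not the immediate early sum, rested on the very deep cell. The 11 genes at least 2-fold higher were Fos, Fosb, Atf3, Egr1, Ier3, Ier5, Dusp2, Btg2, Gadd45b, Hspa1a and Hspa1b. With the 8 further immune genes used to call immune cells, 5 members were at least 2-fold higher in immune and 9 in luminal-keratin cells, against 5.42% of 10658 and 4.46% of 3160 genes in the same setting. Atf3 was at 346 CPM in Ctrl against 1054 CPM in Fgfr2 KO (1.61 (1.39 to 1.83)), and 158 of its 286 UMIs in Fgfr2 KO came from that cell. Without it, the ratio was 0.98 for Atf3, 0.51 for Fos and 0.60 for Ier3. With the remaining 22 cells, 8 of 36 members were at least 2-fold higher (Fosb, Ier5, Dusp2, Zfp36, Btg2, Gadd45b, Hspa1a and Hspa1b), against 8.37% of 6103 genes, and 5 were at least 2-fold lower (Gadd45a, Hsph1, Bag3, Hspb1 and Hspd1), against 16.9%. The genes that held without it include feedback regulators of activated leukocytes: Dusp2 was at 28.9 CPM in Ctrl against 88.4 CPM in Fgfr2 KO with it (1.62 (0.81 to 2.40)) and had a ratio of 2.09 without it, and Gadd45b was at 199.6 and 420.0 CPM (1.07 (0.74 to 1.40)), or 1.53 without it. Hspa1a was at 107 and 265 CPM (1.30 (0.87 to 1.73)) and Hspa1b at 27.3 and 144 CPM (2.40 (1.70 to 3.11)), and without the deep cell their ratios were 1.73 and 2.82. Hsph1, the member at least 2-fold lower, was at 46.5 CPM in Ctrl against 11.1 CPM in Fgfr2 KO on 58 and 3 UMIs (-2.07 (-4.39 to -0.45)), and with the 8 further immune genes its ratio was 0.0023. The luminal markers in this class stood at 1819 CPM in Ctrl against 3965 CPM in Fgfr2 KO with the deep cell and 235 CPM without it, the basal markers at 1314 against 129 CPM, and 35 of 73 and 12 of 23 cells had only 1 Ptprc UMI, and the part of these in the ratios was not tested.

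The low-keratin cells, 25 in each library, were shallow and mixed, and are given only in outline. Their immediate early sum was 15122 CPM in Ctrl against 25987 CPM in Fgfr2 KO (0.78 (0.71 to 0.85)), the highest of any class, and their heat shock sum 3000.5 and 3778 CPM (0.33 (0.17 to 0.50)). Of 30 members tested, 11 were at least 2-fold higher in Fgfr2 KO, against 8.16% of 2205 genes, and 2 were at least 2-fold lower (Hspb1 and Hspd1), against 18.2%. Zfp36 led with 399 CPM in Ctrl against 1751 CPM in Fgfr2 KO (2.13 (1.77 to 2.51)), followed by Gadd45b at 219.7 and 776 CPM (1.82 (1.31 to 2.35)). In this class 2 Ctrl cells and 6 Fgfr2 KO cells had over 25% mitochondrial UMIs, 6 and 13 cells had under 5000 UMIs, and the fibroblast markers stood at 5991 and 1225 CPM. The part of this different make-up in the ratios was not tested.

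From cell to cell, the sums of both groups were positively tied only in basal-keratin cells of Fgfr2 KO among the keratin classes. Spearman's rho between the immediate early and the heat shock sum was -0.12 over 67 basal-keratin and -0.34 over 103 luminal-keratin cells of Ctrl. In Fgfr2 KO it was -0.69 over 21 luminal-keratin cells (-0.57 after thinning to 5000 UMIs) and 0.54 over 17 basal-keratin cells. The positive value rests on 3 cells, with immediate early sums of at least 24212 CPM and heat shock sums of 12845 to 23405 CPM, and is 0.19 without them. Depth and mitochondrial share moved with these sums: in luminal-keratin cells of Fgfr2 KO, rho with UMIs per cell was -0.62 for the immediate early and 0.51 for the heat shock sum, and rho with the mitochondrial share was 0.53 and -0.56. Hspa1a and Hspa1b kept closer to the immediate early genes than to the other chaperones in basal-keratin cells, with rho of 0.50 and 0.07 in Ctrl and 0.67 and 0.35 in Fgfr2 KO. In luminal-keratin cells the same values were 0.06 and 0.04 in Ctrl and 0.22 and -0.0039 in Fgfr2 KO. These correlations describe cells of 1 library, which share depth and handling, and carry no test.

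**Figure D4:**
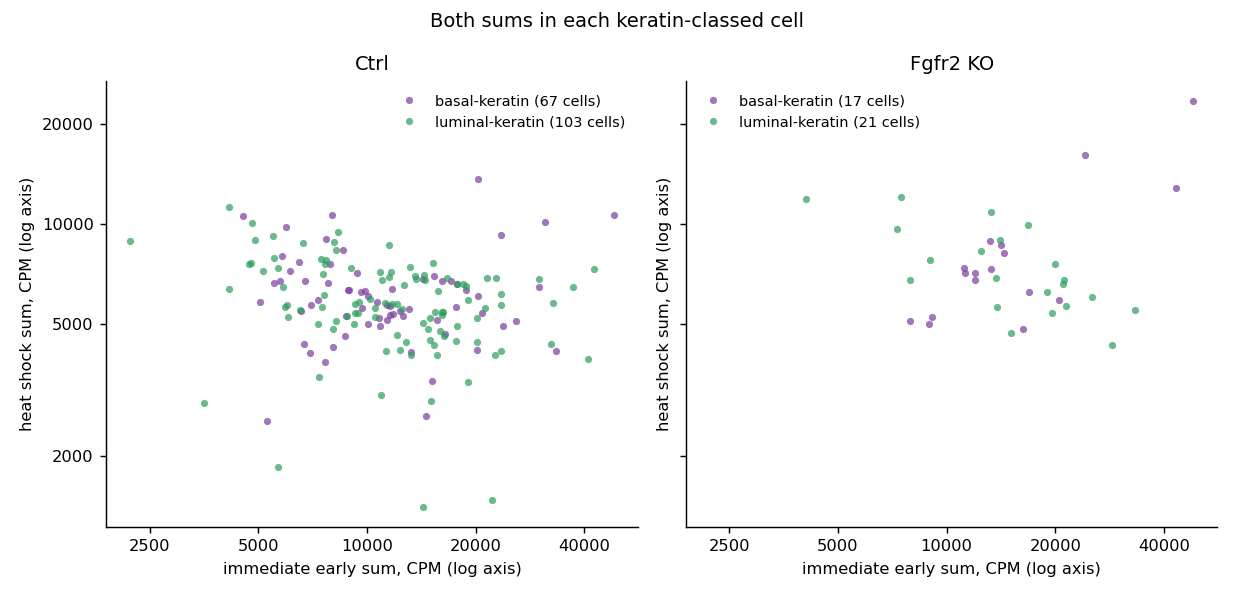
Each point is 1 keratin-classed cell, placed by its immediate early sum (horizontal) and heat shock sum (vertical), both in CPM on log axes, with Ctrl on the left and Fgfr2 KO on the right. Luminal-keratin cells slope downward in both panels (rho -0.34 and -0.69), and 3 basal-keratin cells of Fgfr2 KO lie at the top right, high in both sums.

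Among pairs of members over the 170 keratin-classed cells of Ctrl, the closest were Fos with Zfp36 (rho 0.62) and Fos with Ier2 (0.60) among immediate early genes, and Hspd1 with Hspe1 (0.41) among heat shock genes. The median over pairs was 0.17 within the immediate early group, 0.03 within the heat shock group and -0.03 between them, so the heat shock members hardly moved together from cell to cell. In the 38 keratin-classed cells of Fgfr2 KO, Ier2 with Btg2 (0.85), Jun with Egr1 (0.73) and Hspa1a with Hspa1b (0.68) were closest, and Btg2 with Hspa1b (0.60) was the highest pair between groups. Outside the list, genes whose CPM were among the 5 that followed the immediate early sum best in Ctrl include Malat1 (0.52), a nuclear long noncoding RNA, Pnrc1 (0.47), Ccnl1 (0.45) and Rhob (0.44), itself an immediate early gene, among 2543 genes with at least 200 UMIs. Those that followed the heat shock sum best include Npm1 (0.49), the chaperonin subunit gene Cct5 (0.48), Serbp1 (0.47) and the ribosomal pseudogene Rps2-ps6 (0.45). In Fgfr2 KO, over 508 genes, Xist (0.61), H2-Q4 (0.54), Rhob (0.45), Malat1 (0.45) and mt-Co1 (0.43) followed the immediate early sum, and Hnrnpk (0.59), Cct7 (0.58), Hnrnpf (0.54), Sec61b (0.53) and Eef1g (0.52) the heat shock sum. Malat1 and Rhob thus stood in both immediate early sets of 5, and a cytosolic chaperonin subunit in both heat shock sets.

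Genes of the same pathways that are not among the 37 differed between lists and classes. Of 34 other immediate early genes, 31 were tested in basal-keratin cells, of which 1 was at least 2-fold higher and 4 at least 2-fold lower in Fgfr2 KO, with a median log2 ratio of -0.09. In luminal-keratin cells 0 of 29 were higher and 4 lower (-0.22), and in immune cells 3 of 29 were higher and 2 lower (0.39). The shares of all genes were 4.0%, 4.02% and 7.80% higher and 11.5%, 9.94% and 12.2% lower in basal-keratin, luminal-keratin and immune cells, so these small counts lay near the background. Arc, a synaptic immediate early gene, was the gene at least 2-fold higher in basal-keratin cells, with 41.9 CPM in Ctrl against 148 CPM in Fgfr2 KO (1.82 (1.21 to 2.43)). Dusp4, a nuclear ERK phosphatase and a feedback target of FGF signalling, was lower in every class, with 139.7 CPM in Ctrl against 31.8 CPM in Fgfr2 KO in basal-keratin (-2.14 (-3.29 to -1.18)), 161 CPM in Ctrl against 64.5 CPM in Fgfr2 KO in luminal-keratin (-1.32 (-1.86 to -0.82)) and 129 CPM in Ctrl against 51.6 CPM in Fgfr2 KO in immune cells (-1.32 (-2.23 to -0.53)). Other Dusp genes of the list did not share this. Dusp6 was at 221 CPM in Ctrl against 219 CPM in Fgfr2 KO in basal-keratin cells (-0.01 (-0.43 to 0.39)). In luminal-keratin cells it was at 115 and 114 CPM (-0.01 (-0.43 to 0.38)). Dusp5 had ratios of -0.53 in basal-keratin, -0.37 in luminal-keratin and 1.32 in immune cells. Ctgf and Cyr61, matricellular genes read out by YAP and serum response factor, were lower in luminal-keratin cells of Fgfr2 KO: Ctgf was at 321 CPM in Ctrl against 12.9 CPM in Fgfr2 KO (-4.64 (-5.95 to -3.59)) and Cyr61 at 484 CPM in Ctrl against 135 CPM in Fgfr2 KO (-1.85 (-2.21 to -1.51)). Both are abundant in fibroblasts, whose markers were also lower in luminal-keratin cells of Fgfr2 KO (144 against 1118 CPM), and the part of this was not tested. In basal-keratin cells Ctgf was at 616 CPM in Ctrl against 481 CPM in Fgfr2 KO (-0.36 (-0.63 to -0.09)) and Cyr61 at 589.9 CPM in Ctrl against 587 CPM in Fgfr2 KO (-0.01 (-0.26 to 0.24)). Nr4a3, a relative of Nr4a1, led in immune cells with 15.2 CPM in Ctrl against 55.3 CPM in Fgfr2 KO (1.86 (0.78 to 2.91)).

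Of 28 other cytosolic or HSF1-linked chaperone genes, 0 of 26 were at least 2-fold higher and 2 lower in basal-keratin cells (median log2 ratio -0.16), 1 of 28 higher and 1 lower in luminal-keratin cells (0.18), and 0 of 25 higher and 3 lower in immune cells (-0.22). Of all genes, 4.0%, 4.02% and 7.80% were higher and 11.5%, 9.94% and 12.2% lower in the same order, so these counts lay near or below the background. In luminal-keratin cells 19 of these 28 lay above no change as point values, against 47.1% of all genes, and their median was close to the 0.19 of the 37 members there, while in basal-keratin cells 6 of 26 did, against 42.9%. Hsf1, the heat shock factor, was the higher one in luminal-keratin cells, on 31 UMIs in Ctrl and 15 UMIs in Fgfr2 KO (1.28 (0.28 to 2.21)). Hspa4l, an HSP110 relative, was lower in all 3 classes, for example 38.0 CPM in Ctrl against 10.6 CPM in Fgfr2 KO in basal-keratin cells (-1.84 (-4.17 to -0.21)), and Cryab, a small heat shock protein of the Hspb1 family, was lower in luminal-keratin cells (75.3 CPM in Ctrl against 18.4 CPM in Fgfr2 KO, -2.03 (-3.11 to -1.12)) and not in basal-keratin cells (74.5 CPM in Ctrl against 77.7 CPM in Fgfr2 KO). The 15 chaperones of the endoplasmic reticulum and mitochondria had medians of -0.10, 0.10 and 0.11 in basal-keratin, luminal-keratin and immune cells, with 1 at least 2-fold higher in basal-keratin cells (Dnajc3, 1.07 (0.29 to 1.81)), 0 in luminal-keratin cells and 1 in immune cells (Herpud1, 1.03 (0.08 to 1.92)). At least 2-fold lower were 0, 0 and 1 (Hspa13) in the same order, and all these counts were near or below the same shares of all genes. Among the 12 heat shock members and both chaperone lists, Hspa1a, Hspa1b and Hsf1 were thus the genes at least 2-fold higher in luminal-keratin cells of Fgfr2 KO.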

How the data were processed

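The deposited table held UMI counts per gene and cell, which the authors made with Cell Ranger (2.1.1, mouse build mm10, per the submitters' processing notes, while the study's methods name another version) and joined over both libraries with its aggregation step. Whether that step thinned the libraries to a like depth was not stated. Cells were classed by Ptprc and keratin UMIs. Doublets were kept, and the removal of the 3 Ctrl and 2 Fgfr2 KO cells that Scrublet (scanpy 1.11.5) called was an alternative. UMIs were summed over the cells of a class and library and set per 1000000 UMIs of the same cells (CPM). Ratios carry exact conditional binomial intervals, shares Clopper-Pearson intervals (95%), computed with scipy 1.17.1. The code for the intervals was run on simulated counts with counting error alone, which says nothing about spread between cells or libraries. A ratio was read for genes with at least 20 UMIs over both libraries, and 2-fold was the mark for a count. A gene at 0 in 1 library was set to a floor of 3 counts for that class. The members, lists and classes were chosen with earlier results of these data known. Genes with full values were those with the 3 highest levels of each group over all cells, up to 3 per direction and class by fold among genes whose interval left out no change, and Hspa1a and Hspa1b. Others are given by group. Sequences are from RefSeq (GRCm38.p6). A few genes that these rules would name are not reported here.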

Additional observations from a re-analysis of the deposited data

Results flagged for a closer look

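A few members had intervals on opposite sides of no change among basal-keratin, luminal-keratin and immune cells, as log2 ratios of Fgfr2 KO over Ctrl. Junb was at 0.35 in immune and -0.45 in luminal-keratin cells, and Ier3 at 1.25 and -1.06. Dnaja1 was at 0.43 in basal-keratin and 0.28 in luminal-keratin cells and at -0.60 in immune cells. Hsp90ab1 was at 0.19 in luminal-keratin and -0.14 in basal-keratin cells, Hspd1 at 0.40 and -0.68, and Hspe1 at 0.23 and -0.34. Most of these rest on which cells were counted or how: in at least 1 other setting luminal-keratin Junb was at 0.40, immune Ier3 at -0.32, immune Dnaja1 at 0.27, basal-keratin Hsp90ab1 at 0.18, luminal-keratin Hspd1 at -0.69, and Hspe1 at -0.55 in luminal-keratin and 0.0377 in basal-keratin cells. In the mixed low-keratin class, which was left out here, Dusp1 was at 1.05 against -0.46 in luminal-keratin cells, and Hspb1 at -1.01 against 0.70 in basal-keratin cells. With 1 library a group, none of these differences between classes was tested. The share of all genes with intervals on opposite sides was not counted, so the pattern cannot be called particular to these members.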

How the results depend on the processing

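The log2 ratios of the immediate early sum kept their sign under every setting tried, in basal-keratin cells at 0.56 with at least 2 Ptprc UMIs for an immune cell, 0.29 with 8 further immune genes, 0.45 with the strict keratin class, 0.58 with no keratin minimum, 0.41 without the top cell, 0.43 as a mean over cells and 0.55 scaled without mitochondrial and ribosomal genes. In luminal-keratin cells they were 0.16, 0.57, 0.0630, 0.32, 0.29 (mean over cells), 0.26 (thinned to 5000 UMIs) and 0.19 (that scaling), and in immune cells 0.46, 0.26 and 0.68 (at least 2 Ptprc UMIs, further immune genes, mean over cells). That of the heat shock sum was 0.51 (further immune genes), 0.22 (no keratin minimum), 0.46 (mean) and 0.42 (thinned) in basal-keratin cells, and 0.33 (no minimum), 0.31 (without the top cell), 0.34 (mean), 0.34 (thinned) and 0.49 (that scaling) in luminal-keratin cells. In immune cells it was 0.35 (at least 2 Ptprc UMIs), 0.00390 (without the top cell), 0.36 (mean), 0.34 (thinned) and, in an alternative chosen after seeing the data, -0.11 without the deepest Ptprc-positive cell. Members at least 2-fold higher were 9 in luminal-keratin and 5 in immune cells with the further immune genes, against 4.46% and 5.42% of all genes, a setting that left 26 and 17 Ctrl cells in the keratin classes. Single members turned too: with the further immune genes, basal-keratin Hsp90ab1 was at 0.18 and Hspe1 at 0.0377, luminal-keratin Junb at 0.40 and Hspe1 at -0.39, and immune Ier3 at -0.32 and Hsph1 at 0.00232. Luminal-keratin Hspd1 was at -0.13 without the top cell and -0.69 thinned, Hspe1 at -0.0867 as a mean and -0.55 thinned, Dusp1 at 0.45 with no minimum, and immune Dnaja1 at 0.27 as a mean. The cause was not tested. Scaling without mitochondrial and ribosomal genes moved the median of all genes by 0.12 on the log2 scale in low-keratin cells and by less in the others. No paired analysis was possible because each group had 1 library. Depth limits Hsph1, Bag3, Dusp2, Egr2 and Fosl1, which held few UMIs.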
